A study of Rattus norvegicus with 12 samples.

Results

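Calcineurin, protein phosphatase 1 (PP1) and protein phosphatase 2A (PP2A) remove phosphate groups from serine and threonine residues of synaptic proteins. The transcripts of 10 of their subunits and inhibitors were followed here in the CA1 field of the rat hippocampus. The members were every probe set of the array whose platform annotation gives a single gene symbol among Ppp3ca, Ppp3cb, Ppp3r1, Ppp1ca, Ppp1cb, Ppp1cc, Ppp1r1a, Ppp1r1b, Ppp2ca and Ppp2cb. This gave 13 probe sets, of 15866 that are not manufacturer's controls, and each of the 10 genes had at least 1. Ppp3ca, Ppp3cb and Ppp3r1 had 2 each, 1 annotated to a RefSeq transcript, called the RefSeq probe set below, and 1 annotated to an expressed sequence tag (EST). For Ppp3ca these were 1368277_at (RefSeq) and 1373479_at (EST), for Ppp3cb 1387261_at (RefSeq) and 1375882_at (EST), and for Ppp3r1 1369152_at (RefSeq) and 1372982_at (EST). The other members were 1386863_at (Ppp1ca), 1386950_at (Ppp1cb), 1367637_a_at (Ppp1cc), 1386968_at (Ppp1r1a), 1372208_at (Ppp1r1b), 1388805_at (Ppp2ca) and 1367827_at (Ppp2cb). A further probe set, annotated to a member together with another symbol, was left out.

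Each of 12 Affymetrix RAE230A arrays carried RNA from the microdissected CA1 of 1 young male Long-Evans rat, 3 to 4 months of age, and the labels call the arrays biological replicates. In the spatial learning group (6 arrays) the rats had 8 swims to a visible platform that kept its place, with orienting cues around the maze. In the control task group (6 arrays) they had as many swims to a visible platform that was moved between trials, and cues that could orient them were lacking. Animals of both groups had been through standard water maze training 2 to 3 weeks before, met this maze as a new one with 8 minutes between trials, had a 90 second probe trial 1 hour after the last swim, and were killed straight after it. The comparison asks which CA1 transcripts differ between a session that offered a stable place and one that did not. Levels are the authors' log2 probe set summaries, each difference is the spatial learning mean minus the control task mean of those log2 levels, and SDs and n refer to arrays. Probes differ in how well they bind, so a higher level was not read as more transcript than the level of a different probe set. Gaps between 2 probe sets of a gene were compared only between the groups. Fewer cells of a type and less RNA per cell cannot be told apart in such tissue.

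Calcineurin is the phosphatase switched on by calcium and calmodulin. In hippocampal neurons it dephosphorylates inhibitor 1, the product of Ppp1r1a, which then releases its hold on PP1, and this cascade is known for its part in long-term depression and for opposing the kinases of long-term potentiation. Ppp1r1b encodes the related inhibitor DARPP, best known from the medium spiny neurons of the striatum. PP2A is an abundant phosphatase whose catalytic subunit, from Ppp2ca or Ppp2cb, joins a scaffold and a regulatory subunit.

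All 13 probe sets were expressed above the level of 4 (log2) below which probe sets were left out, and none changed past the test between the groups. Their differences ran from -0.13 for Ppp1r1b to 0.11 for Ppp2cb, 8 of them higher and 5 lower in the spatial learning group, with a median of 0.05, against a median of 0.0079 over all 9610 probe sets tested. Limma adjusted p over the whole table lay between 0.439 and 0.981, so 0 of 13 passed at 0.05, as did 0 of all probe sets (0%). At an unadjusted limma p under 0.05 there were 2 members, 1 probe set of Ppp3ca and that of Ppp2cb, both higher. That is 15.4% of the members, beside 10.9% of all probe sets in either direction, 6.36% higher and 4.55% lower. The exact rank-sum test gave 0 members at an unadjusted p under 0.05, and 896 over all probe sets. In 0 of 13 were the groups free of overlap, beside 0.635% of all probe sets.

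The intervals of these differences were narrow. The 95% intervals from limma together spanned -0.28 to 0.31, so a change larger than 1.24-fold either way lay outside every one of them. The SEs ran from 0.03 for 1 probe set of Ppp3ca to 0.10 for Ppp1r1a, with a median of 0.05 against 0.07 over all probe sets tested. The SD between arrays within a group, pooled over both groups, was 0.05 in the steadiest member probe set and 0.19 in the most variable, and the median over all tested probe sets was 0.12.

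**Figure D1:**
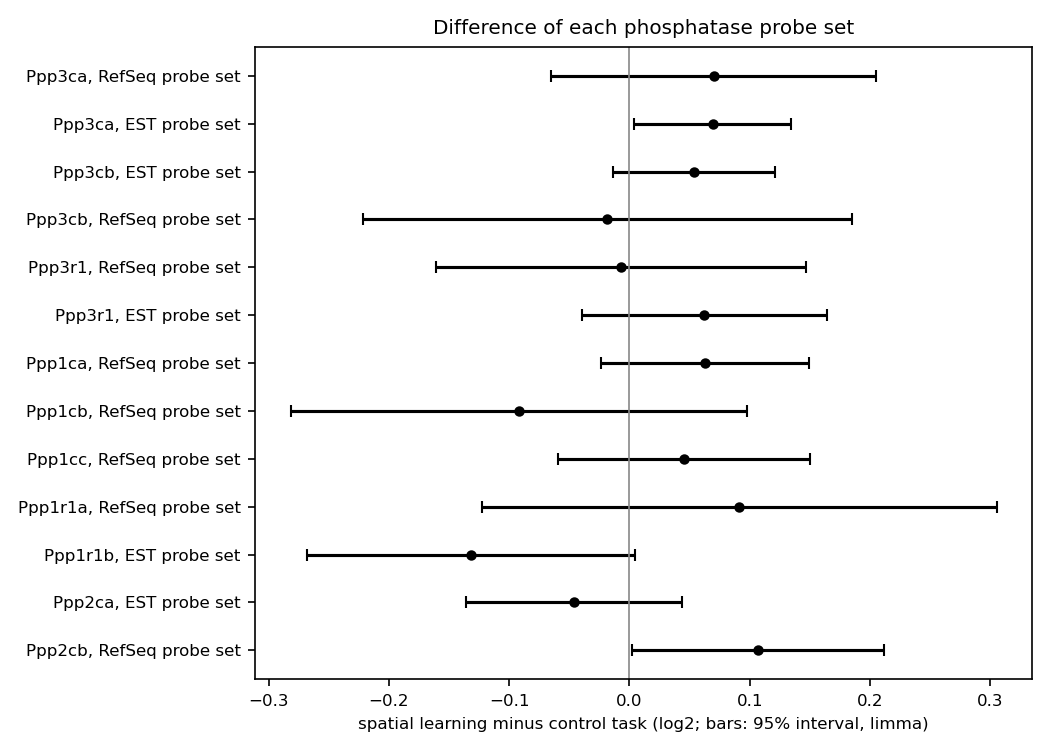
Difference between spatial learning and control task arrays (log2, horizontal axis) for each of the 13 phosphatase probe sets, with the 95% interval from limma as a bar. The estimates run from -0.13 to 0.11 and no bar reaches below -0.28 or above 0.31.

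Ppp3ca encodes the alpha catalytic subunit of calcineurin. On its EST probe set the spatial learning arrays had a lowest, median and highest level of 13.88, 14.02 and 14.05, against 13.89, 13.91 and 14.00 on the control task arrays. Of the 6 spatial learning arrays, 4 lay above every control, replicate 2 lay above every control but replicate 6, and replicate 6 lay below every control. The mean was 14.00 ± 0.06 in the spatial learning group and 13.93 ± 0.04 in the control task group (SD, n = 6 each), a difference of 0.07 (SE 0.03, 1.05-fold) with a limma adjusted p of 0.439. The exact permutation p over all splits of the arrays into 6 and 6 was 0.0541, unadjusted and 2-sided. On its RefSeq probe set the levels were 13.13, 13.32 and 13.42 in the spatial learning group, against 13.10, 13.17 and 13.43 in the control task group. Here too spatial learning replicate 6 was the lowest of its group, while control replicates 3 and 6, at 13.37 and 13.43, reached the top of the spatial learning range. The difference was again 0.07, with an SE of 0.06 (limma adjusted p = 0.714).

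Ppp3cb encodes the beta catalytic subunit. Its EST probe set had 11.71, 11.82 and 11.85 as its lowest, median and highest level in the spatial learning group, against 11.71, 11.75 and 11.78 in the control task group. The highest control thus lay below the spatial learning median, and the difference was 0.05 (SE 0.03, limma adjusted p = 0.547). Its RefSeq probe set spread more widely, at 10.81, 11.10 and 11.25 in the spatial learning group and 10.87, 11.10 and 11.36 in the control task group. Its groups overlapped throughout, and its difference of -0.02 had an SE of 0.09 (limma adjusted p = 0.960).

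Ppp3r1 encodes the calcium-binding regulatory subunit, calcineurin B. Its EST probe set read 12.15, 12.25 and 12.43 in the spatial learning group, against 12.11, 12.19 and 12.31 in the control task group, a difference of 0.06 (SE 0.05, limma adjusted p = 0.664). Its RefSeq probe set read 11.23, 11.44 and 11.67 in the spatial learning group, against 11.36, 11.40 and 11.59 in the control task group, a difference of -0.0072 (SE 0.07, limma adjusted p = 0.981). Spatial learning replicate 1 was the highest of all 12 arrays on both of these probe sets, and the groups overlapped on both.

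**Figure D2:**
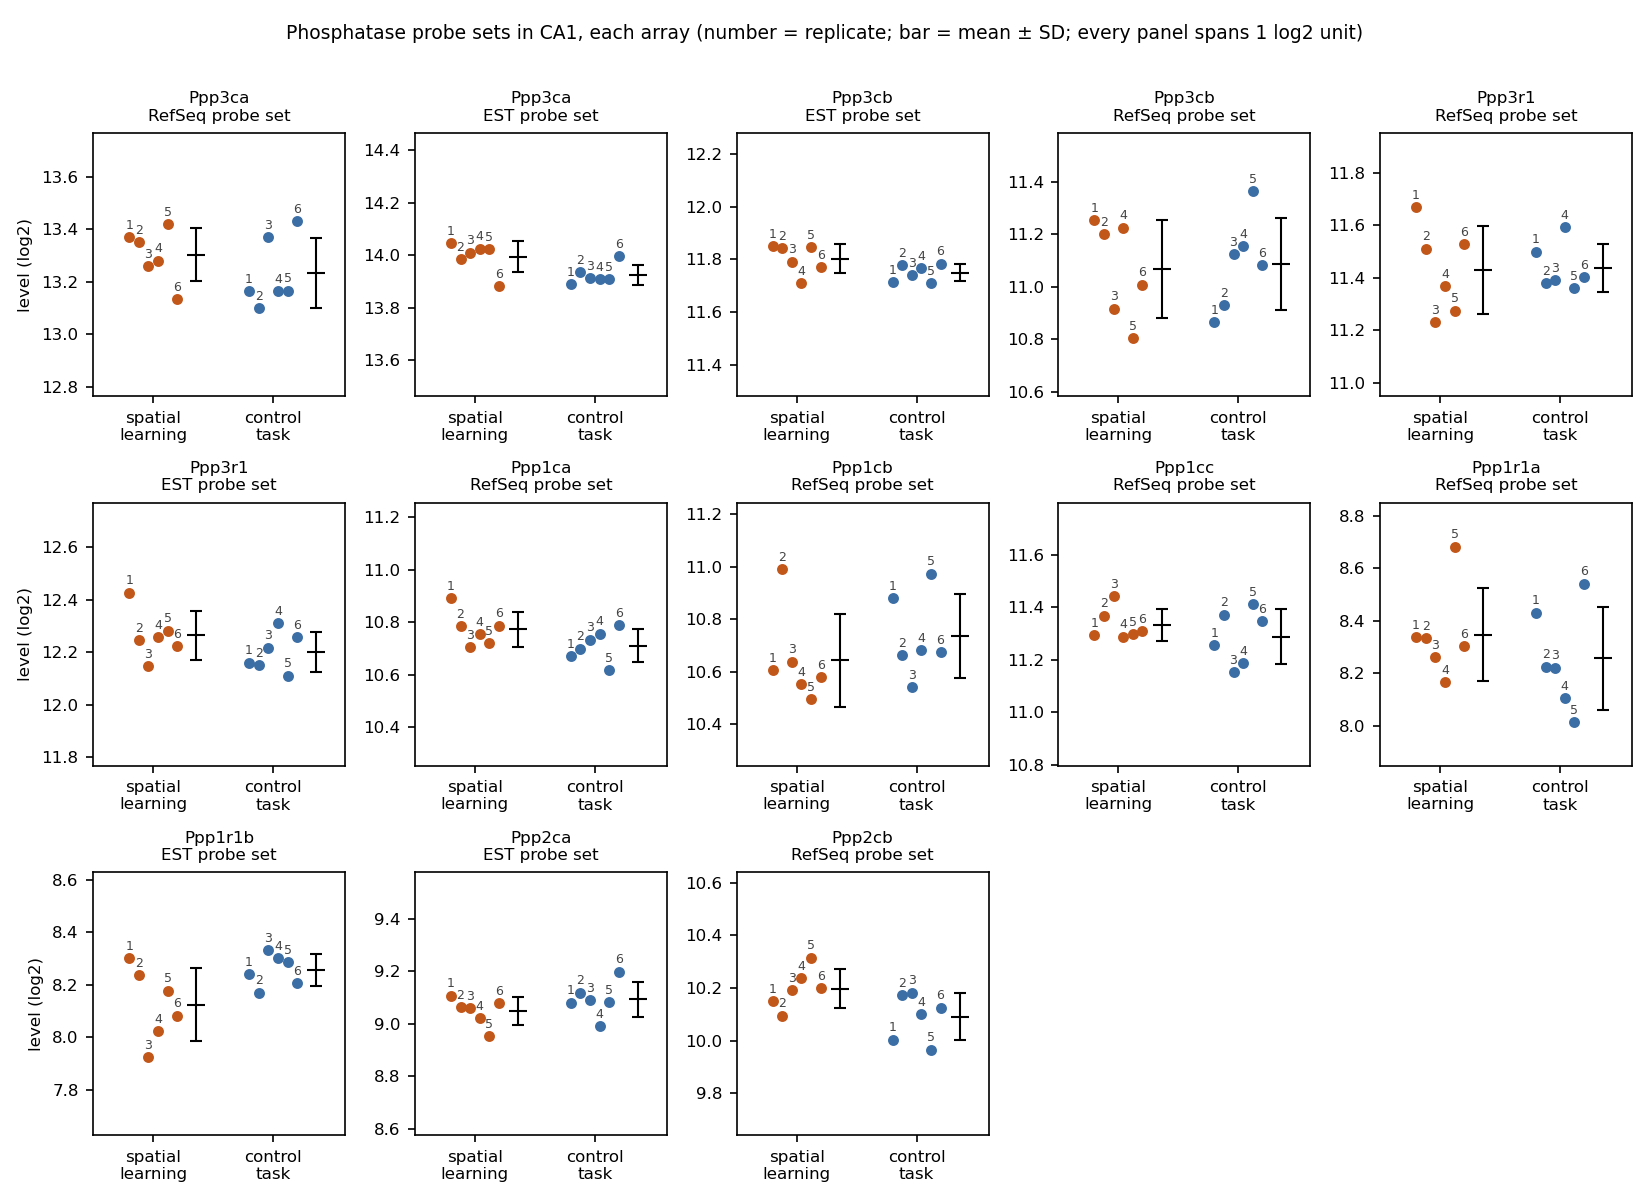
Level of each phosphatase probe set (log2, vertical axis) on every array, with spatial learning arrays left of control task arrays, the replicate number above each point and the group mean ± SD as a bar. Every panel spans 1 log2 unit, and in each of the 13 panels the groups overlap.

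Where a calcineurin gene had 2 probe sets, the shift between the groups did not differ detectably between them. The gap is the RefSeq minus the EST level on the same array, except for Ppp3cb, where it is EST minus RefSeq. The gap between the probe sets of Ppp3ca was -0.69 ± 0.06 in the spatial learning group and -0.69 ± 0.11 in the control task group (SD, n = 6 each; exact permutation p = 0.985, 0.985 after adjustment over the 3 pairs). For Ppp3cb the gap was 0.73 ± 0.20 in the spatial learning group and 0.66 ± 0.19 in the control task group (exact permutation p = 0.537, adjusted 0.805). For Ppp3r1 the gap was -0.83 ± 0.12 in the spatial learning group and -0.76 ± 0.07 in the control task group (exact permutation p = 0.251, adjusted 0.753).

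From array to array the pairs differed in how they moved. The Ppp3ca probe sets were high and low on largely the same arrays: the 5 arrays at 13.17 or below on the RefSeq probe set were all among the 6 at 13.94 or below on the EST probe set. Because these arrays fall into a lower and a higher set, no correlation over all 12 is given. The Ppp3cb probe sets did not move together, with a Pearson r of -0.18 over 12 arrays (permutation p = 0.571, adjusted over 3 pairs 0.571) and a Spearman rho of -0.24 (permutation p = 0.443, adjusted 0.443). Without the 2 arrays farthest from the median of the EST probe set, r was -0.16. For Ppp3r1 r was 0.61 (permutation p = 0.0331, adjusted 0.0496) and rho 0.55 (permutation p = 0.0719, adjusted 0.108). Without control replicate 4 and spatial learning replicate 1, the arrays farthest from the median of the RefSeq probe set, r was 0.11, so the relation rests on those arrays. No scan dates or batches are given in the sources used here, so none of these relations could be taken within batches. Within the groups r was 0.70 for spatial learning and 0.64 for control task arrays in Ppp3r1. In Ppp3cb it was -0.16 for spatial learning and -0.23 for control task arrays.

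**Figure D3:**
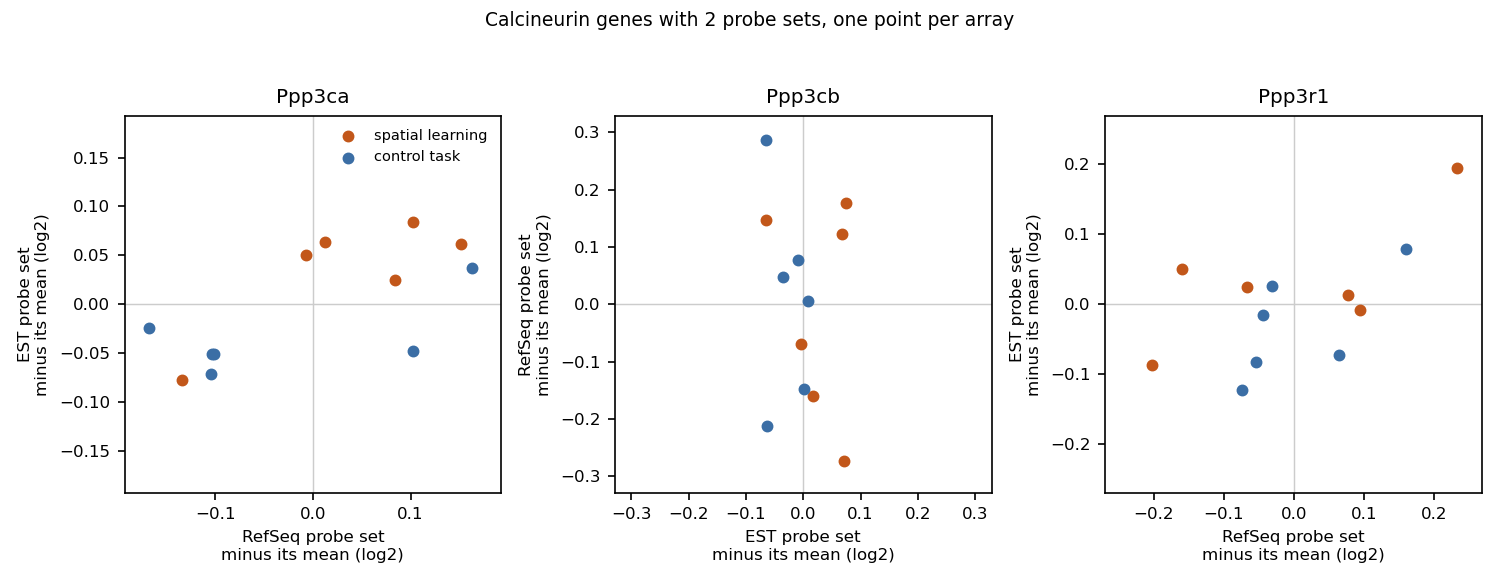
The 2 probe sets of Ppp3ca, Ppp3cb and Ppp3r1 against each other, each as its level minus its own mean over the 12 arrays (log2, both axes), 1 point per array, coloured by group. The Ppp3ca points run from lower left to upper right, whereas those of Ppp3cb (r = -0.18) do not.

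In a comparison made after the values were seen, the EST probe set of Ppp3ca divided the arrays as the mean of the CA1 marker genes did. This division nearly followed the groups, so a probe set that differs between the groups tends to match it. Of 11 gene symbols listed as CA1 markers, 9 had a probe set, and 8 of these 9 were higher in the spatial learning group. All 9 lay above the level filter. Their mean was 10.40 in the spatial learning group, with a range of 10.22 to 10.50, and 10.24 in the control task group, with a range of 10.16 to 10.41. By this mean the arrays fell into 2 separate sets of 6. Spatial learning replicates 1 to 5 and control replicate 6 lay between 10.38 and 10.50, and control replicates 1 to 5 and spatial learning replicate 6 between 10.16 and 10.25. On the EST probe set of Ppp3ca the same 6 arrays lay at 13.99 or above and the same 6 at 13.94 or below. The RefSeq probe set did not divide them so, since control replicate 3, of the lower set, read 13.37, above spatial learning replicates 2, 3 and 4 of the higher set at 13.35, 13.26 and 13.28. Within each set of 6 no relation passed after adjustment. For the EST probe set of Ppp3ca Pearson r was 0.62 in the higher set (exact permutation p = 0.203, Spearman rho 0.31, exact p = 0.564). In the lower set it was -0.43 (exact permutation p = 0.357, rho 0.03, exact p = 1). Without the 2 arrays of each set farthest from its median these r were -0.24 and 0.44. For the RefSeq probe set of Ppp3ca r was 0.49 in the higher set (exact permutation p = 0.306, rho 0.37, exact p = 0.497). In the lower set it was 0.74 (exact permutation p = 0.154, rho 0.89, unadjusted exact p = 0.0333). Without the 2 farthest arrays its r was 0.09 in the higher set and -0.23 in the lower. Over the 26 relations computed within sets, 2 for each member probe set, the lowest adjusted p was 0.700 for r and 0.708 for rho. With 6 arrays in a set the arrangements are too few for a single rho to pass after that adjustment.

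Markers of other cells were lower in most cases, short of the test. Of the dentate gyrus markers 6 of 7 tested were lower in the spatial learning group, with a list mean of 6.61 in the spatial learning group and 6.77 in the control task group. Of the microglia markers 7 of 7 were lower, with the same rounded list means. Of the astrocyte markers 7 of 8 were lower, at 10.31 in the spatial learning group and 10.38 in the control task group. Of the oligodendrocyte markers 6 of 8 were lower and 2 higher, and of the CA3 markers 4 of 6 were lower and 2 higher. Of the choroid plexus markers 2 of 3 tested were lower and 1 higher. Their list mean was 4.25 in the spatial learning group (4.13 to 4.30) and 4.79 in the control task group (4.28 to 6.02). Among them Ttr stood at -3.33 (limma adjusted p = 0.423) without overlap of the groups, as in 0.635% of all probe sets. Unlike the counts, the list means take in markers below the level filter, 2 in the dentate list, 1 in the microglia list and 4 in the choroid plexus list. In these lists 0 genes passed after adjustment over all probe sets, and their part in the members' differences was not tested.

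With the CA1 marker mean as a covariate, an added fit that was chosen after seeing the data, differences of Ppp3ca were -0.0026 on the EST probe set (limma adjusted p = 0.994) and -0.10 on the RefSeq probe set (limma adjusted p = 0.673), both turned from the higher direction. Of the 13 member probe sets 5 were then higher. Of the 6 spatial learning arrays 5 lay in the higher set of CA1 marker level, and of the 6 controls 5 lay in the lower. This fit can thus hardly separate the marker level from the group. Spatial learning replicate 6 and control replicate 6 were also the arrays highest in meningeal transcripts, with list means of 6.02 and 6.33 against at most 5.08 and 5.31 elsewhere in their groups. Control replicate 3 was highest in choroid plexus transcripts, with a list mean of 6.02. Control replicates 6, 2 and 1, at 4.90, 4.72 and 4.50, also lay above every spatial learning array in that list. Both replicate 6 arrays and control replicate 3 were left out in another fit, which kept control replicates 1 and 2. The Ppp3ca differences were then 0.19 on the RefSeq probe set (limma adjusted p = 0.115) and 0.11 on the EST probe set (limma adjusted p = 0.158), still short of the threshold. On both probe sets spatial learning replicate 6 was the lowest of its group and control replicate 6 the highest of its group. Leaving these arrays out therefore had to raise the differences, and nothing is concluded from the rise.

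**Figure D4:**
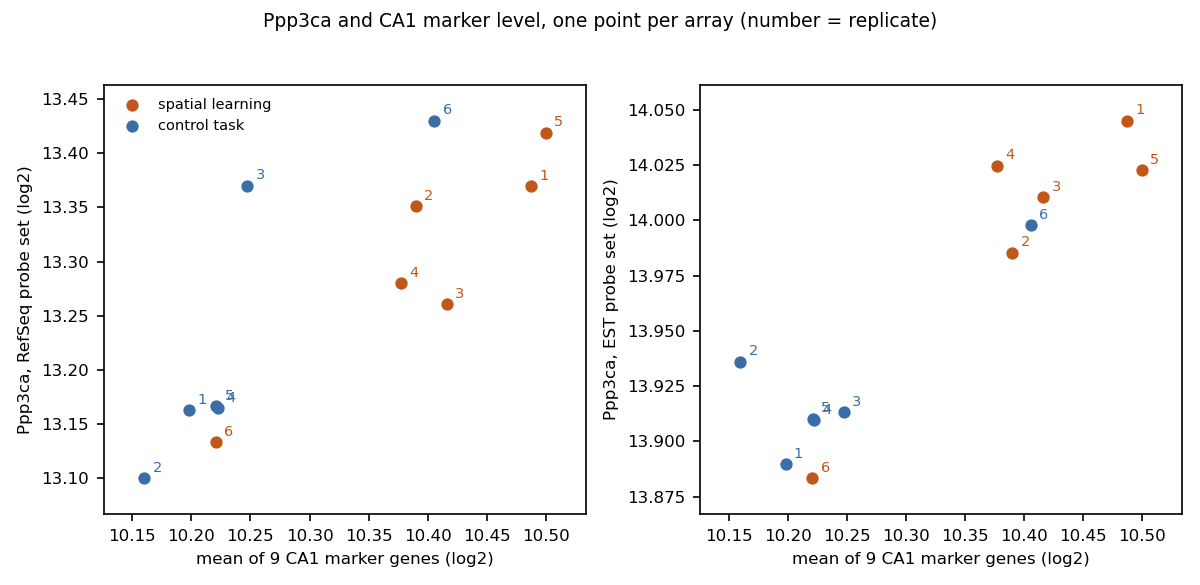
Level of the 2 Ppp3ca probe sets (log2, vertical axes) against the mean of 9 CA1 marker genes (log2, horizontal axis), 1 point per array with its replicate number, coloured by group. Control replicate 6 lies with spatial learning replicates 1 to 5 at 10.38 or above, and spatial learning replicate 6 lies with control replicates 1 to 5 at 10.25 or below.

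PP1 has catalytic subunits encoded by Ppp1ca (alpha), Ppp1cb (beta) and Ppp1cc (gamma), each with 1 probe set. Their coding sequences are much alike, and whether a probe set also binds a related transcript was not tested. Ppp1ca read 10.71, 10.77 and 10.89 at its lowest, median and highest in the spatial learning group, against 10.62, 10.72 and 10.79 in the control task group. Its groups overlapped between 10.71 and 10.79, with a difference of 0.06 (SE 0.04, limma adjusted p = 0.592). Ppp1cb, whose product is also the catalytic subunit of myosin phosphatase, read 10.50, 10.59 and 10.99 in the spatial learning group, against 10.54, 10.68 and 10.97 in the control task group. A single spatial learning array, replicate 2, stood far above the rest of its group, as controls 1 and 5 did at 10.88 and 10.97, and the other 5 spatial learning arrays lay at 10.64 or below. The difference was -0.09 (SE 0.09, limma adjusted p = 0.737), -0.16 without spatial learning replicate 2 (limma adjusted p = 0.444) and -0.04 without control replicate 5 (limma adjusted p = 0.904). Ppp1cc, whose product is enriched at dendritic spines, read 11.29, 11.30 and 11.44 in the spatial learning group, against 11.15, 11.30 and 11.41 in the control task group. The medians coincided, with a difference of 0.05 in the means (SE 0.05, limma adjusted p = 0.768) that was 0.02 without control replicate 3.

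Neither of the 2 PP1 inhibitors passed the test, and whether their differences were unlike was not tested. Ppp1r1a, which encodes inhibitor 1, read 8.17, 8.32 and 8.68 in the spatial learning group, against 8.01, 8.22 and 8.54 in the control task group. Spatial learning replicate 5 and control replicates 6 and 1 were the 3 highest arrays, at 8.68, 8.54 and 8.43. The difference was 0.09 (SE 0.10, limma adjusted p = 0.772), and it was 0.02 without spatial learning replicate 5. Its direction turned with each of 2 covariates, to -0.0039 with the gap of the hexokinase control transcript and to -0.08 with the CA1 marker mean. Ppp1r1b, the DARPP gene, averaged 8.12 ± 0.14 in the spatial learning group and 8.26 ± 0.06 in the control task group (SD, n = 6 each), and ranged from 7.92 to 8.30 in the spatial learning group, against 8.17 to 8.33 in the control task group. Of the 6 spatial learning arrays 3 lay below the lowest control, and 1 lay above the control median. The difference of -0.13 (SE 0.06) had a limma adjusted p of 0.470 and an unadjusted exact permutation p of 0.0714.

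Striatal marker genes were looked at beside Ppp1r1b, whose transcript is abundant in striatum. Of 11 such genes 10 had a probe set, and 5 of these, the dopamine receptor genes Drd1 and Drd2, the adenosine receptor gene Adora2a, Tac1 and Gpr6, lay below the level filter. The list mean ran from 4.93 to 5.07 in the spatial learning group and from 4.89 to 5.10 in the control task group. Of the 5 striatal genes tested 2 were higher and 3 lower in the spatial learning group, and 0 passed after adjustment over all probe sets.

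PP2A was represented by its catalytic subunit genes alone, Ppp2ca (alpha) and Ppp2cb (beta). Ppp2cb read 10.10, 10.20 and 10.32 in the spatial learning group, against 9.96, 10.11 and 10.18 in the control task group. Of the 6 spatial learning arrays 4 lay above the highest control. Its mean was 10.20 ± 0.08 in the spatial learning group and 10.09 ± 0.09 in the control task group (SD, n = 6 each), a difference of 0.11 (SE 0.05, 1.08-fold, limma adjusted p = 0.447) with an unadjusted exact permutation p of 0.0541. Ppp2ca read 8.95, 9.06 and 9.11 in the spatial learning group, against 8.99, 9.09 and 9.20 in the control task group, and differed by -0.05 (SE 0.04, limma adjusted p = 0.718). Of its 6 spatial learning arrays 1 lay above the control median.

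Regulators and targets of these phosphatases, and related phosphatases, were taken from 4 lists with 124 gene symbols. Of these 88 had a probe set and 73 were tested, each through the probe set that was brightest on average. Of these 73 genes 0 passed after adjustment over all probe sets. Over all 6867 named genes tested the median difference was 0.01, and 10% had an unadjusted limma p under 0.05.

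Calcineurin regulators and targets had a median of -0.03, with 4 of 11 higher, 7 lower and 0 at an unadjusted p under 0.05. Their smallest p belonged to Nfatc3, a transcription factor that calcineurin dephosphorylates, at -0.09 (limma adjusted p = 0.473). Akap5, which anchors calcineurin and protein kinase A at the postsynaptic membrane, stood at -0.39 (SE 0.21, limma adjusted p = 0.524). Ppp3cc, the gamma catalytic subunit, stood at -0.05, and Rcan1, a calcineurin-binding regulator, at 0.05. The second regulatory subunit gene, Ppp3r2, averaged 2.58 and was left out as too dim.

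PP1 regulators had a median of 0.05, with 15 of 21 higher and 6 lower. At an unadjusted p under 0.05 there were 3, all higher (14.3%). These were Ppp1r16b, a membrane-associated PP1 subunit, at 10.48 ± 0.08 in the spatial learning group and 10.32 ± 0.12 in the control task group (difference 0.16, limma adjusted p = 0.423), Ppp1r14b, a PP1 inhibitor, at 0.10 and Wbp11, a splicing factor that binds PP1, at 0.15, both with a limma adjusted p of 0.437. The fourth by p, Ppp1r21, stood at 0.09 (limma adjusted p = 0.506).

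PP2A scaffold and regulatory subunits and modifiers had a median of 0.03, with 17 of 22 higher and 5 lower, and at an unadjusted p under 0.05 there were 2 in each direction (18.2%). The lower ones were Ppp2r3a, a regulatory subunit, at 5.89 ± 0.17 in the spatial learning group and 6.30 ± 0.35 in the control task group (difference -0.41, SE 0.14, limma adjusted p = 0.420), and Anp32a, a PP2A inhibitor, at -0.27 (limma adjusted p = 0.436). The higher ones were Lcmt1, which methylates the PP2A catalytic subunit, at 0.14 (limma adjusted p = 0.437) and Ensa, an inhibitor of PP2A once phosphorylated, at 0.11 (limma adjusted p = 0.440). The remaining probe sets of Ensa gave -0.17 and 0.04.

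Related serine and threonine phosphatases outside these families had a median of -0.01, with 8 of 19 higher and 11 lower, 2 of them at an unadjusted p under 0.05 (10.5%). Ppm1k, a mitochondrial phosphatase of branched-chain amino acid breakdown, stood at 8.77 ± 0.31 in the spatial learning group and 9.16 ± 0.13 in the control task group (difference -0.39, SE 0.12, limma adjusted p = 0.388). Ppm1b stood at -0.10 (limma adjusted p = 0.437), and its other probe sets at -0.05 and -0.02. Ppp5c at 0.11 and Pdp1, a phosphatase of pyruvate dehydrogenase, at -0.12 followed by p.

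**Figure D5:**
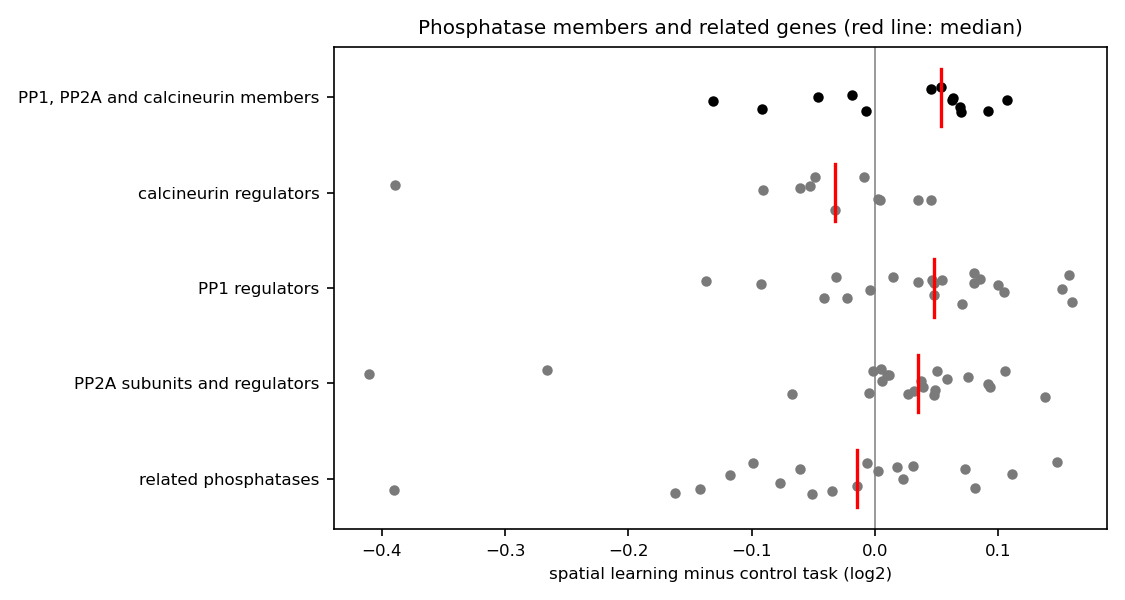
Difference between spatial learning and control task arrays (log2, horizontal axis) for the 13 member probe sets (black) and for the tested genes of 4 lists of related genes (grey), with each median as a red line. The medians lie between -0.03 and 0.05, and the members lie between -0.13 and 0.11.

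RNA quality controls were read on the same arrays, and their part in the members' differences was not tested. On the hexokinase control transcript the 3' signal exceeded the 5' signal by 1.65 ± 0.11 in the spatial learning group and 1.48 ± 0.08 in the control task group (log2, SD, n = 6 each). For beta-actin the gap averaged 1.93 ± 0.07 on spatial learning arrays and 1.83 ± 0.09 on control task arrays, and for Gapdh 0.37 ± 0.08 on spatial learning arrays and 0.37 ± 0.06 on control task arrays. With the hexokinase gap as a covariate 0 of the 13 member probe sets passed, and the RefSeq probe set of Ppp3cb turned to 0.08. The hexokinase gap was itself higher in the spatial learning group. That fit thus cannot fully separate the gap from the group, and nothing is concluded from its 0 calls.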

How the data were processed

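The deposited values are log2 probe set summaries of 12 arrays. The authors made them with GCRMA, per the submitters' processing notes, which corrects for background by probe sequence and evens out the arrays' distributions, so a change in total RNA cannot be seen. No version is given in the sources used here. The log2 scale was read from the values, 0.134 to 14.8. Precision is limited by the 6 arrays per group. Correlations between arrays were 0.996 to 0.998.

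Gene names come from the platform's annotation, which can be old. All 10 member genes matched a reference table by Entrez identifier, with 0 symbols changed. Of 15923 probe sets 57 were controls, and 9610 with a mean of at least 4 over all arrays were tested with limma 3.58.1 in R 4.3.3 (lmFit, then eBayes with a trend on intensity; the group was the single term and tests were 2-sided), and p-values were adjusted by Benjamini-Hochberg over all 9610, at a threshold of 0.05. The procedure was tested on simulated data. Single values and probe set gaps were tested by exact permutation over all splits into 6 and 6, and correlations over 12 arrays with 100000 permutations. The members, lists and tests were chosen with earlier results of these data known. All members were named, and up to 4 genes of each list by smallest p. Replicate numbers in the titles were not taken as pairs, since deviations of same-numbered arrays correlated above 0.1 in 0 of 6 cases.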

Additional observations from a re-analysis of the deposited data

Results flagged for a closer look

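In each group of 6 arrays the highest and lowest array of the 13 member probe sets were set against the rest by Dixon's test, and 3 of 26 groups stood out, where chance gives about 1 in 20. Ppp3ca, on its EST probe set, read 13.88 on spatial learning replicate 6, against 13.99 on the next lowest array of that group. Ppp1cb read 10.99 on spatial learning replicate 2, against 10.64 on the next highest. Ppp1r1a read 8.68 on spatial learning replicate 5, against 8.34 on the next highest.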

How the results depend on the processing

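Member probe sets past the threshold numbered 0 under all 24 other settings run, and so did the other phosphatase genes under 25. Both counts include the exact rank-sum test, whose smallest possible unadjusted p with 6 arrays per group is 0.0022. Its smallest adjusted p over all probe sets was 0.341. The arrangements are too few for a single gene to pass that test after adjustment, so nothing is concluded from its 0 calls. Across the array as a whole, 0 to 3 probe sets passed when 1 array was left out, the 3 without control replicate 6, and 3 passed with array weights, 5 without the 3 arrays high in choroid plexus or meningeal transcripts and 1 with the CA1 marker mean as covariate. That covariate also left 5 of 13 members higher, against 8 to 10 under the other settings. With it Ppp3ca turned to -0.104 (RefSeq) and -0.0026 (EST), Ppp3r1 to 0.029 (RefSeq) and -0.0039 (EST), and Ppp1r1a to -0.076. The hexokinase covariate turned Ppp1r1a to -0.0039 and the RefSeq probe set of Ppp3cb to 0.076. Array weights turned the RefSeq probe sets of Ppp3r1 to 0.021 and of Ppp3cb to 0.039, and leaving out the 3 arrays turned that of Ppp3cb to 0.0022. Leaving out single arrays moved the RefSeq probe set of Ppp3r1 between -0.055 and 0.032, that of Ppp3cb between -0.063 and 0.037, and the gap between the Ppp3ca probe sets between -0.028 and 0.031. The causes were not tested. In the remaining 281 of 299 cases a member kept its direction. With the replicate number as a block 0 members passed, 8 were higher, and the lowest adjusted p was 0.646. Same-numbered arrays correlated best with each other in 1 of 6 cases. The gaps between probe sets gave 0 calls with any single array left out. With that block they gave 0 calls too, but swapping the groups within 6 replicate numbers leaves too few arrangements for a single gene to pass.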
